A study of Rattus norvegicus with 34 samples.

Results

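The arrays labelled mild 24 h were compared with those labelled mild 15 h, 3 arrays against 3, in cultured rat cortical neurons whose axon bundles had been injured. The 6 arrays were taken by their titles from the 34 arrays of the series, and 21862 features, 21749 of them with a gene name, were tested between these times. All arrays carried biotin-labelled RNA on the Illumina RatRef-12 V1 bead platform. The cells were primary cortical neurons of embryonic Hooded Wistar rats (the labels give both embryonic day 17 and gestation day 15 to 16), injured on day 21 of culture, with at least 12 wells pooled for each time and 3 cultures from different pregnant rats. No label links a replicate to its culture, so p-values here reflect the spread among these 3 arrays a group, which may be technical. They name 2 ways of injuring axon bundles, transection with a knife and stretch with puffs of oxygen, and do not say which was the mild one. Both groups carry the same injury and strain and differ in the labelled time alone. Mild arrays at 0 and 8 h, and severe arrays at 8, 15, 24 and 48 h, also 3 each, entered the fits as named below. Controls 1 to 3 entered as the divisor of every mild array at 0 to 24 h.

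Cut or stretched axons set off changes in the nerve cell body that unfold over hours: stress and immediate early genes respond first, then genes of growth, metabolism and neuropeptide signalling. Cultures of embryonic cortex also hold dividing and supporting cells beside the neurons, such as astrocytes, microglia and meningeal fibroblasts, and these respond to damage with cytokines, matrix and cell division. In such bulk RNA, fewer cells of a type and less RNA per cell cannot be told apart.

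Each value is a log2 ratio to the mean of control 1 to 3, so 0 is the control level, and a difference is 24 h minus 15 h on the log2 scale, in which the control divisor cancels. Ratios carry no signal level. The columns of the deposited signal table have names that match no sample. They could be matched to the ratio columns by value, which served only to describe the divisor and the order of the arrays. Signal levels were not used, so detection and the level of the labelled cell type's markers were not checked. The group names also have a limit. The 2 deposited tables list 18 of the 34 arrays in different orders, and under the second of these orders the 15 h and 24 h groups compared here would hold mild 24 h and 48 h arrays. The labels of the samples were followed throughout, and both readings keep the same 6 arrays on the same 3 chips, where replicate 1, 2 or 3 of every mild group from 0 to 24 h shares a chip.

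An array stood apart, mild 15 h replicate 1. Its log2 ratios had an SD of 0.215, against 0.143 and 0.111 on the other 15 h arrays and 0.132 to 0.174 on the 24 h arrays. The median of 169 ribosomal protein, proteasome and respiratory chain genes was -0.08 on it, 0.22 and 0.01 on the other 15 h arrays, and 0.07, 0.18 and 0.25 on the 24 h arrays. Mild 0 h replicate 2, also in the fit, had a larger SD of 0.246 and a median of 0.43 for these genes. No 2 of the 12 mild arrays held identical values.

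Few genes separated the times. Of 21862 features, 2 passed an adjusted p under 0.05, which is 0.00915%, and both were higher at 24 h: Defb1 and Sphk1. With the chip in the model as a replicate block none passed, and the smallest adjusted p was 0.117. At an unadjusted p under 0.05 the 12-array limma fit counted 1976 features (9.04%), of which 1574 (7.2%) were higher and 402 (1.84%) lower at 24 h. The fitted differences ran from -1.44 to 0.95 with a median of 0.02 and a median standard error of 0.08. Only 109 features differed by more than 0.5 either way, and 6 by more than 1.

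The direction was uneven near the threshold. Of the 42 features with an adjusted p under 0.1, 41 had a positive difference, and in all 42 the 24 h arrays lay beyond all 15 h arrays. Over all features the 24 h arrays lay wholly above the 15 h arrays in 1812 (8.29%) and wholly below in 899 (4.11%). Differences had the same sign on all 3 chips in 4013 features that were higher (18.4%) and 2136 that were lower (9.77%). Centring each array on its median brought the unadjusted counts closer, 1207 higher and 726 lower, quantile normalization gave 1452 and 1024, and centring on the 169 housekeeping genes turned the balance, to 274 higher and 1254 lower.

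**Figure D1:**
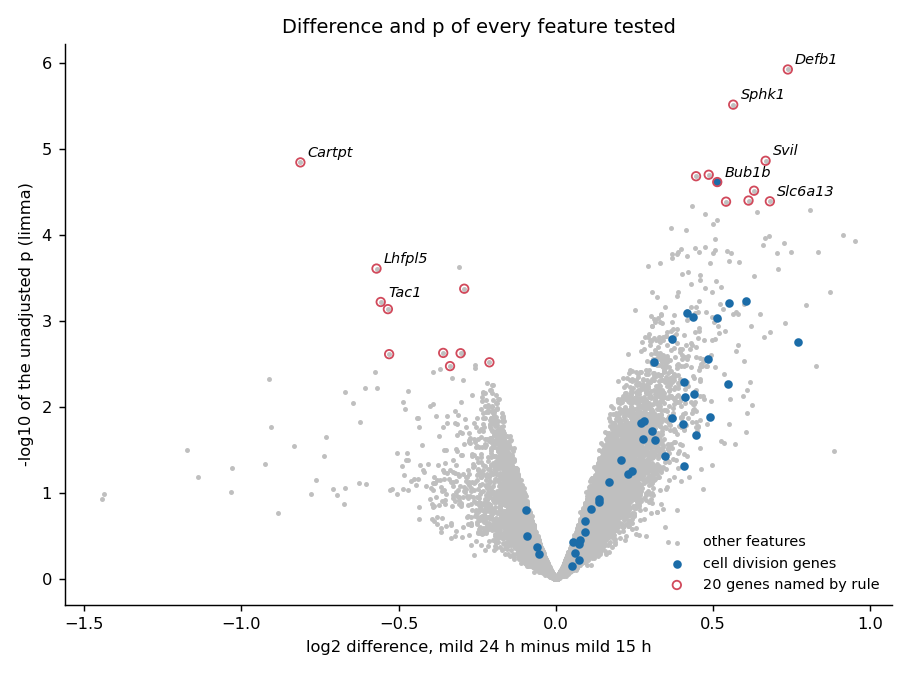
Each point is a feature, with its log2 difference (mild 24 h minus mild 15 h, 3 arrays each) on the horizontal axis and -log10 of its unadjusted limma p on the vertical axis. Defb1 (0.74) and Sphk1 (0.56) stand highest, Cartpt (-0.81) has the smallest p among lower genes, and 40 of 44 cell division genes lie right of 0.

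Defb1 encodes beta-defensin 1, a small antimicrobial peptide made by epithelia and also found in brain. Its log2 ratios were -0.39, -0.35 and -0.21 on the 15 h arrays and 0.30, 0.65 and 0.31 on the 24 h arrays. All 24 h arrays lay above the control mean and all 15 h arrays below it, without overlap. The difference was 0.74 ± 0.09 (SE, n = 3 arrays a group; limma adjusted p = 0.026), and 0.117 was its adjusted p with the replicate block. At 0 and 8 h the 6 arrays lay between -0.19 and -0.08, so the 24 h arrays were also the highest of the 12 mild arrays.

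Sphk1 encodes sphingosine kinase 1, the enzyme that makes the lipid messenger sphingosine 1-phosphate. It was at -0.07, -0.08 and -0.01 on the 15 h arrays and at 0.45, 0.56 and 0.51 on the 24 h arrays. The 15 h arrays sat at the control level and the 24 h arrays well above it. The difference of 0.56 ± 0.07 (SE, n = 3) passed with a limma adjusted p of 0.0334, and had an adjusted p of 0.173 with the replicate block. S1pr1, a receptor for the product of that enzyme, lay the other way. It was at 0.18, 0.24 and 0.13 at 15 h and at -0.04, 0.00 and -0.05 at 24 h, a difference of -0.21 ± 0.06 that did not pass (limma adjusted p = 0.308).

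Both calls lost significance in the 12-array design when any 15 h array was left out, where no feature passed. Without mild 15 h replicate 1, Defb1 differed by 0.70 and Sphk1 by 0.56. Leaving out any 24 h array kept Defb1 and lost Sphk1. Just outside the threshold stood Cartpt, Svil, Gusb and Nt5dc2 at an adjusted p of 0.0754 and Bub1b at 0.0757.

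**Figure D2:**
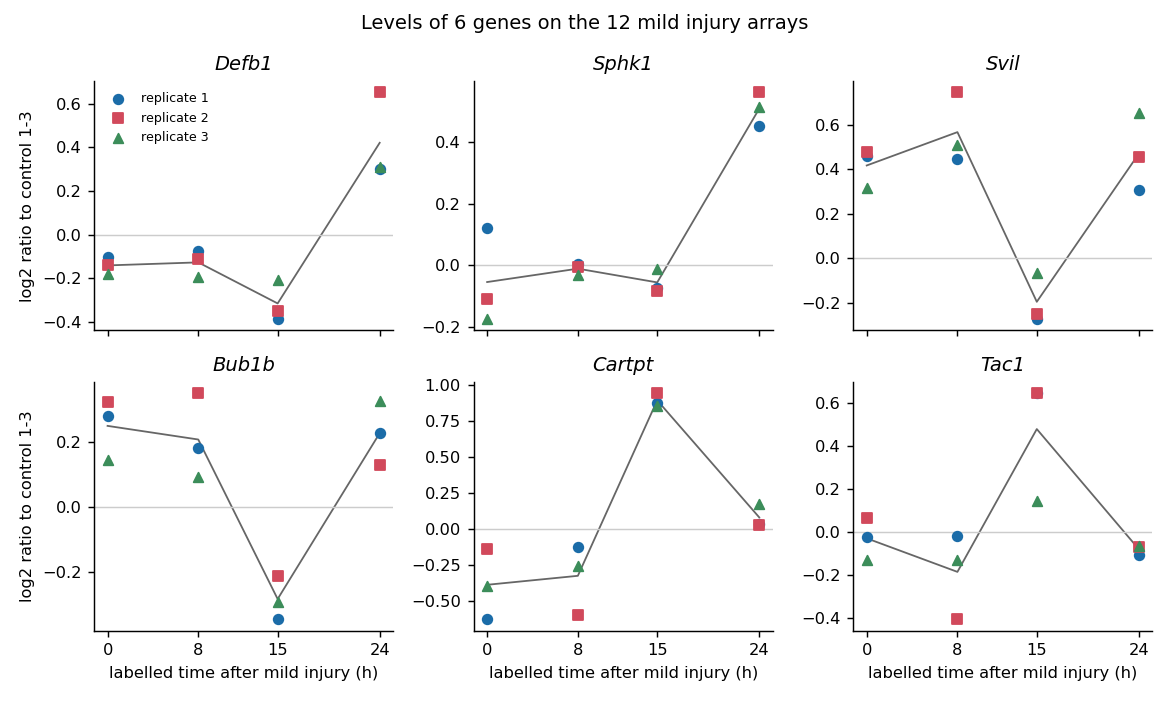
Log2 ratio to control 1 to 3 (vertical axis) of 6 genes on the 12 mild arrays by labelled time in hours (horizontal axis); symbols are replicates, which share a chip, and the line joins the group means. Defb1 and Sphk1 are highest at 24 h, whereas Svil and Bub1b dip and Cartpt and Tac1 peak on the 15 h arrays.

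The other 8 genes named with higher levels at 24 h did not pass, with limma adjusted p from 0.0754 to 0.0813. Svil encodes supervillin, which ties actin and myosin to membranes. It was at -0.27, -0.25 and -0.06 at 15 h and at 0.31, 0.45 and 0.65 at 24 h, a difference of 0.67 ± 0.10. Ngfr, the p75 neurotrophin receptor, was at -0.30, -0.30 and -0.24 at 15 h and at 0.13, 0.24 and 0.41 at 24 h, a difference of 0.54 ± 0.09. Neither gene's groups overlapped. Solute carriers and a kinase that regulates carriers were among the rest: Slc6a13, a GABA and taurine transporter, differed by 0.68 ± 0.11, Slc22a2, an organic cation transporter, by 0.61 ± 0.10, and Wnk4, a kinase that controls ion cotransporters, by 0.63 ± 0.10. Gusb, the lysosomal beta-glucuronidase, differed by 0.49 ± 0.08, and Nt5dc2, a protein with a nucleotidase domain, by 0.45 ± 0.07. Bub1b is described with the cell division genes.

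Neuropeptides made up 3 of the 10 genes named with lower levels, none of which passed. Cartpt encodes the precursor of the CART peptides, which act in feeding and reward circuits. It was at 0.88, 0.95 and 0.86 on the 15 h arrays and at 0.04, 0.03 and 0.18 on the 24 h arrays, with no overlap. The difference was -0.81 ± 0.12 (limma adjusted p = 0.0754; 0.173 with the replicate block). Tac1, the precursor of substance P, was at 0.65, 0.64 and 0.14 at 15 h and at -0.10, -0.07 and -0.07 at 24 h, a difference of -0.56 ± 0.13 (adjusted p = 0.19). Vip, the vasoactive intestinal peptide gene of interneurons, was at -0.18, 0.02 and 0.19 at 15 h and at -0.29, -0.48 and -0.21 at 24 h. Its difference of -0.34 ± 0.09 also did not pass (adjusted p = 0.315). Resp18, a secretory granule protein of neuroendocrine cells, differed by -0.53 ± 0.12, and Npy, another interneuron peptide, by -0.26 ± 0.11. The neuron marker list as a whole had a median difference of 0.02, as did all features, with chip medians of -0.01, -0.18 and 0.33. Of its 22 members, 13 had a positive difference (57.6% of all features did). At an unadjusted limma p under 0.05 none was higher and 2 were lower, against 7.2% and 1.84% of all features. Bcl11b, a member on the other side, differed by 0.28 ± 0.14.

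The 250 bases before the start of the 3 peptide genes are shown because each holds the letters TGACG, known as the core of the cyclic AMP response element, on at least 1 strand. The sequences are from RefSeq on build GRCr8: Cartpt at chr2:32991236-32991485 on the minus strand, Tac1 at chr4:36645333-36645582 on the plus strand and Vip at chr1:44470230-44470479 on the plus strand. Capitals mark this motif, and those searched in the cell division genes below (CCAAT as well as TTTGAA), on either strand.
Cartpt: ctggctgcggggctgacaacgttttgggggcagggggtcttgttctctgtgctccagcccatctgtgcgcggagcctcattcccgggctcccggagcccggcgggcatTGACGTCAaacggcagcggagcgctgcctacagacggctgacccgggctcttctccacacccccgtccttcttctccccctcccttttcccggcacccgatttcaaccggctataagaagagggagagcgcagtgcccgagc
Tac1: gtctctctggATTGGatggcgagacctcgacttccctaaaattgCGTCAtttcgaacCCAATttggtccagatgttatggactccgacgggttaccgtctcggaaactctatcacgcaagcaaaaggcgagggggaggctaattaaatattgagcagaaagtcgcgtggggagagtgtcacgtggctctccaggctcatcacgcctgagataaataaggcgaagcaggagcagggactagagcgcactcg
Vip: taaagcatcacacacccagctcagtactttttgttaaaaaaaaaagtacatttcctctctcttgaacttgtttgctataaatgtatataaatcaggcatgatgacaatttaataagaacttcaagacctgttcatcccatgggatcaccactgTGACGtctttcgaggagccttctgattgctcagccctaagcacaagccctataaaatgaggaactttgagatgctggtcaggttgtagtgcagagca
In Cartpt the motif stands on both strands as the palindrome TGACGTCA, 142 bases before the start. TGACG was found on either strand in 5 of the 9 lower genes with a sequence (55.6%), in 22.8% of the 13458 promoters of tested features and in 32.4% of the cell division promoters. Sphk1, which was higher at 24 h, held it too. The palindrome was found in 1 of the 9 and in 2.3% of the promoters of tested features. These 9 genes were chosen by their difference, and a match of letters is a description.

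The remaining lower genes had mixed roles. Nr4a3, an orphan nuclear receptor induced by activity, was at 0.59, 0.27 and 0.31 at 15 h and at -0.25, -0.25 and 0.08 at 24 h, a difference of -0.53 ± 0.14. Cdkn1a encodes p21, an inhibitor of cyclin-dependent kinases and a p53 target. It was at 0.30, 0.33 and 0.29 at 15 h and at -0.05, -0.01 and 0.07 at 24 h, a difference of -0.30 ± 0.08, with all 24 h arrays below all 15 h arrays. Lhfpl5, a membrane protein of hair cell mechanotransduction, differed by -0.57 ± 0.12, Crim1, which binds bone morphogenetic proteins, by -0.36 ± 0.10 and Or7g29, an olfactory receptor gene, by -0.29 ± 0.06. The limma adjusted p of these 5 genes ran from 0.109 to 0.297.

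Cell division genes had the largest median difference of the 35 gene lists. No member passed alone. Of 44 measured, 40 had a positive difference (57.6% of all features did), 26 were higher at an unadjusted p under 0.05 and none was lower, against 7.2% and 1.84% of all features. In 22 the 24 h arrays lay wholly above the 15 h arrays (8.29% of all features). The median difference was 0.29, beside 0.02 over all features, and was 0.45, 0.20 and 0.21 on the chips of replicates 1, 2 and 3.

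Bub1b, the BubR1 kinase of the spindle checkpoint, was at -0.35, -0.21 and -0.29 on the 15 h arrays and at 0.23, 0.13 and 0.33 on the 24 h arrays. The groups lay on opposite sides of the control mean, and the difference was 0.51 ± 0.08 (limma adjusted p = 0.0757). Ccna2, the cyclin of DNA replication and entry into mitosis, was at -0.69, -0.41 and -0.05 at 15 h and at 0.16, 0.29 and 0.21 at 24 h, a difference of 0.60 ± 0.14. Prc1, which bundles microtubules of the dividing spindle, was at -0.72, -0.32 and -0.22 at 15 h and at -0.07, 0.28 and 0.18 at 24 h, a difference of 0.55 ± 0.12. The array mild 15 h replicate 1 was the lowest of the 6 for each of these 3 genes.

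Members chosen after their values were seen show the range. Rrm2, a subunit of the enzyme that makes deoxyribonucleotides, had the largest difference of the list at 0.77 ± 0.20. The replication licensing factors Mcm6, Mcm3, Mcm7 and Mcm2 differed by 0.55, 0.51, 0.49 and 0.48, while Mcm5 differed by 0.09. The proliferation marker Mki67 differed by 0.08 ± 0.09, and Cenpa, the centromeric histone, by -0.10 ± 0.06. Members of the same replication complex thus had unlike values, and their differences from each other were not tested.

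Part of the size rests on mild 15 h replicate 1. Without it the list median was 0.17 and 15 members were higher at an unadjusted p under 0.05, and without mild 15 h replicate 3 they were 0.36 and 27. The median was also 0.17 after centring on housekeeping genes, with 16 members higher, where that of all features was -0.10. With the replicate block 26 members were higher. The list medians on the single arrays were -0.28, -0.08 and -0.03 at 15 h and 0.04, 0.12 and 0.19 at 24 h.

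**Figure D3:**
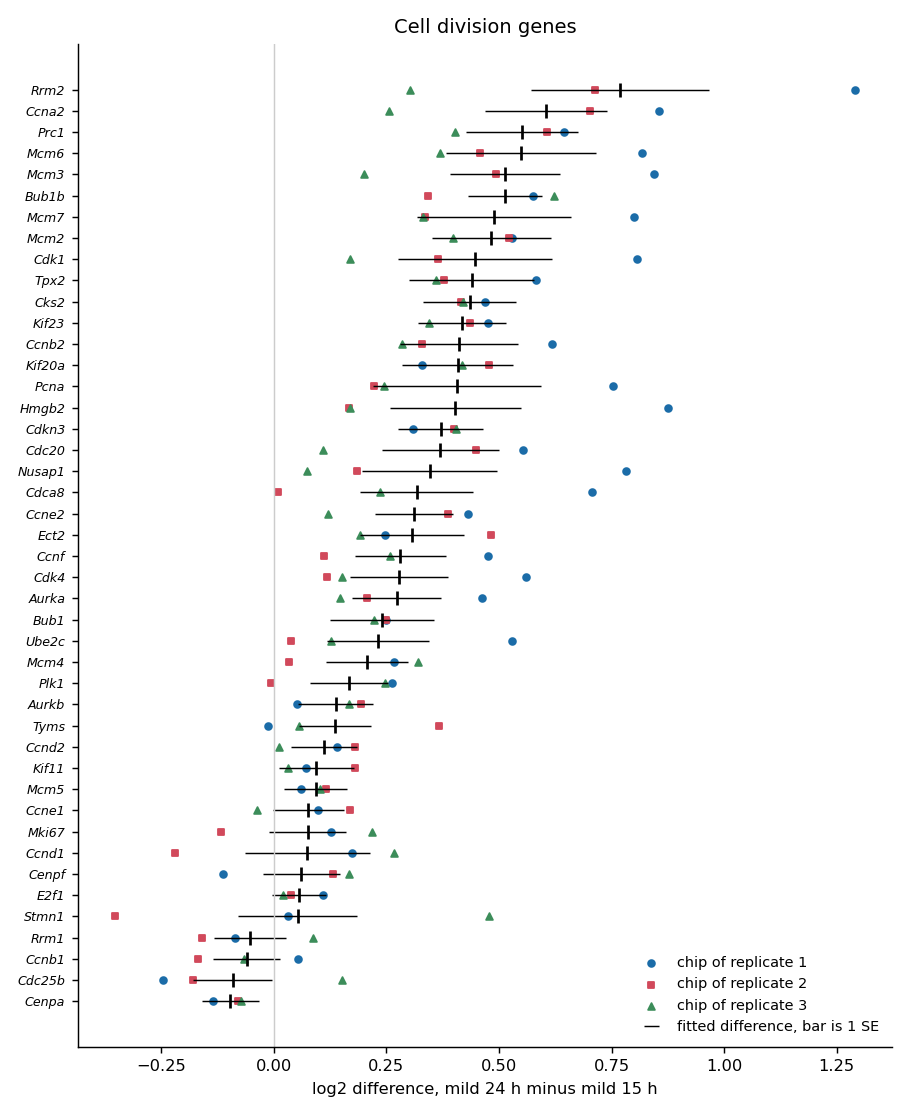
Log2 difference (mild 24 h minus mild 15 h) of the 44 cell division genes measured; black bars are the fitted difference with 1 SE and symbols are the differences on each chip. From Rrm2 (0.77) to Cenpa (-0.10), 40 of 44 lie above 0, and the chip of replicate 1 has the largest median, 0.45.

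The promoters of Prc1 and Cks2, a small protein that binds cyclin-dependent kinases, are shown because each holds both CCAAT and TTTGAA, motifs known from promoters of genes expressed in the later part of the cell cycle. They are from RefSeq, GRCr8: Prc1 at chr1:143659231-143659480 on the plus strand and Cks2 at chr17:13727520-13727769 on the minus strand, with motifs on either strand in capitals.
Prc1: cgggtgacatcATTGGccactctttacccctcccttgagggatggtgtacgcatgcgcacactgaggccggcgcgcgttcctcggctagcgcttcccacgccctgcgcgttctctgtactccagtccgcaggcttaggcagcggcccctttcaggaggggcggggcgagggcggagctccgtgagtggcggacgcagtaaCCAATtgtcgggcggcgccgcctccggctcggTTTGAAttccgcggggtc
Cks2: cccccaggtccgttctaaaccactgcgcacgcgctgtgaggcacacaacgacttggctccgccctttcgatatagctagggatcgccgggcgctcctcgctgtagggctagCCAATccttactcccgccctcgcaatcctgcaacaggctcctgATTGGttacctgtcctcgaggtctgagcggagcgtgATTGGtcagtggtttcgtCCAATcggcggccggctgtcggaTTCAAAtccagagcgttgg
TTTGAA begins 18 bases before the start on the gene's strand of Prc1 and 19 bases before it on the opposite strand of Cks2, next to CCAAT motifs further up in both. Among the 34 list members with a sequence, CCAAT was found on either strand in 27 (79.4%) and TTTGAA in 14 (41.2%). In all 27457 promoters of the table the shares were 34.3% and 16.0%, and in those of tested features 35.1% and 14.2%. The promoter of Bub1b held none of the motifs searched.

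Genes of RNA splicing, protein breakdown and respiration also lay mostly above 0, with smaller medians. No member of these lists passed. As before, 57.6% of all features were positive, 7.2% counted as higher and 1.84% as lower by the unadjusted threshold of 0.05, which is used for every list count below. Of 40 nuclear RNA splicing genes, 37 were positive and 16 higher, with a median of 0.20. Hnrnph1, a splicing regulator that binds G-rich RNA, was at -0.74, -0.26 and -0.33 at 15 h and at -0.03, -0.02 and 0.16 at 24 h, a difference of 0.48 ± 0.14. Srsf2, a serine- and arginine-rich splicing factor, differed by 0.31 ± 0.09.

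Of 35 proteasome genes, 34 had a positive difference and 12 were higher, with a median of 0.19. Psmc5, an ATPase of the regulatory particle, was at -0.47, -0.09 and -0.35 at 15 h and at 0.11, 0.09 and 0.05 at 24 h, a difference of 0.39 ± 0.09. Of 59 oxidative phosphorylation genes, 56 had a positive difference and 7 were higher, with a median of 0.16. Sdhd, a membrane anchor of respiratory complex II, differed by 0.35 ± 0.10. Translation factors had 36 of 40 positive, 10 higher and a median of 0.13, and Eef1d, an elongation factor subunit, differed by 0.35 ± 0.10. The 75 cytosolic ribosomal protein genes had a median of 0.05, with 61 positive and 5 higher, a share near the 7.2% of all features.

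These counts turned on single arrays. Without mild 15 h replicate 1 the count of higher members was 2 for the proteasome, 1 for oxidative phosphorylation and 6 for splicing, and without mild 15 h replicate 2 it was 22, 43 and 21. For translation factors it was 4 and 13, and for ribosomal protein genes 0 and 14. On the chip of replicate 2 the medians were 0.02, -0.04 and 0.08. After centring on housekeeping genes, which include the proteasome, respiratory and ribosomal lists themselves, the ribosomal median was -0.07. The splicing median was then 0.08 with 6 members higher, and that of translation factors 0.01 with 3 higher. The proteasome and oxidative phosphorylation lists had 2 members higher each.

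**Figure D4:**
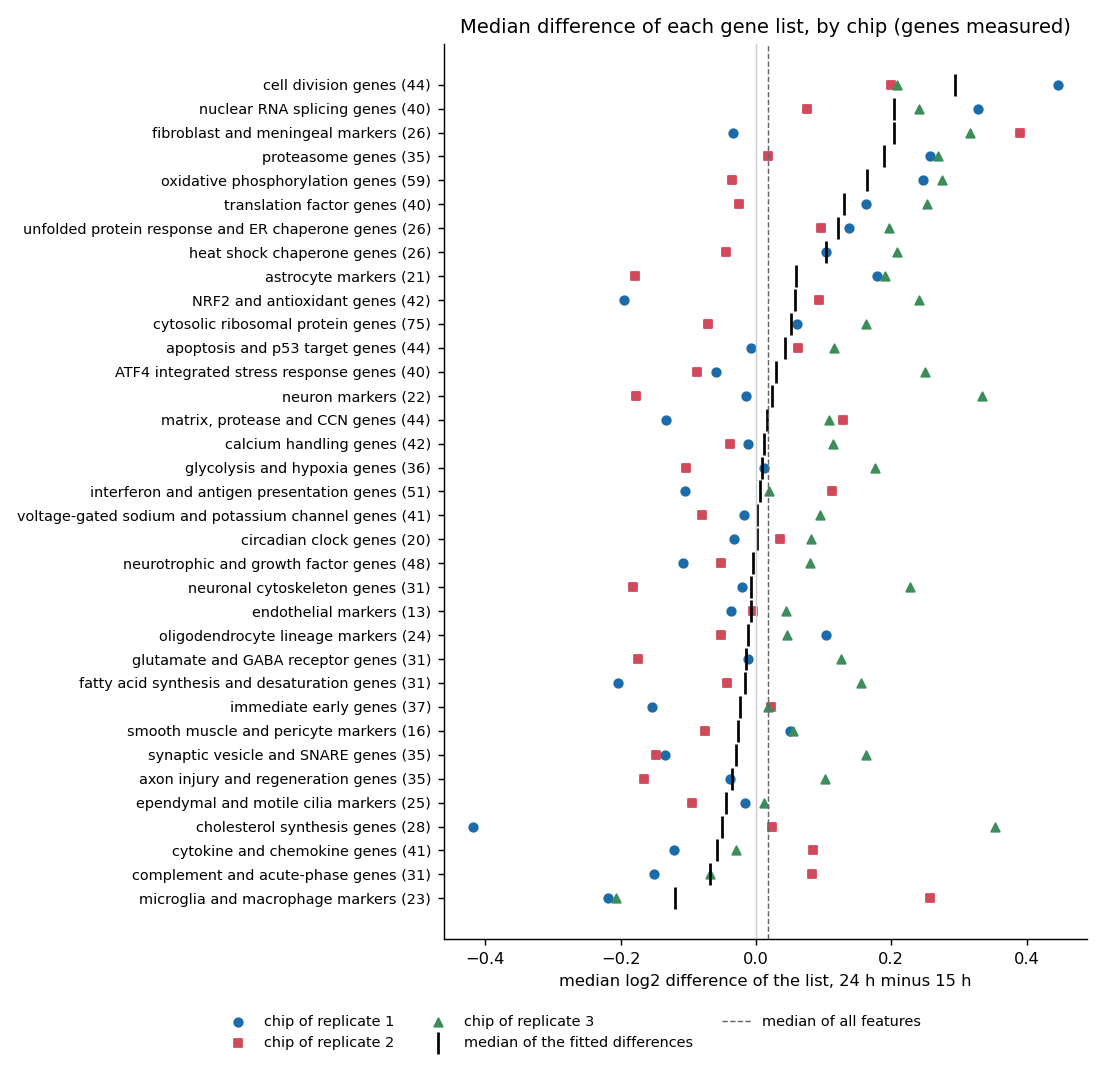
Median log2 difference (mild 24 h minus mild 15 h) of the 35 gene lists, with the number of genes measured in brackets; the black bar is the median of the fitted differences, symbols are medians on each chip, and the dashed line is the median of all features, 0.02. Cell division (0.29) is highest and above 0 on every chip, and microglia and macrophage markers (-0.12) are lowest, with the chip of replicate 2 on the other side.

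Protein folding genes followed with small differences. Of 26 unfolded protein response and ER chaperone genes, 22 were positive, 4 higher (7.2% of all features were) and 1 lower. Without mild 15 h replicate 1, 1 was higher, and without mild 24 h replicate 2, 7 were. Their median was 0.12, and 0.00 after housekeeping centring. Hspa5, the main chaperone of the endoplasmic reticulum, differed by 0.36 ± 0.13. Heat shock chaperones had 21 of 26 positive, 4 higher (1 without mild 24 h replicate 3, 7 without mild 15 h replicate 2) and a median of 0.10, which was -0.02 after that centring. ATF4 target genes had a median of 0.03, and Slc1a5, a glutamine transporter among them, differed by 0.22 ± 0.07.

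Markers of supporting cells differed unevenly between lists and chips. Of 26 fibroblast and meningeal markers, 22 were positive and 8 higher (7.2% of all features were), with a median of 0.20 and chip medians of -0.03, 0.39 and 0.32. Without mild 15 h replicate 1, 15 were higher and the median was 0.32, and without mild 24 h replicate 3, 5 were higher. Housekeeping centring gave 5 higher and a median of 0.08. Crabp2, a retinoic acid carrier of the meninges, was at -0.67, -0.58 and -0.14 at 15 h and at 0.17, 0.63 and 0.31 at 24 h, a difference of 0.83 ± 0.16 (limma adjusted p = 0.0921). Col6a3, a collagen VI chain, differed by 0.50 ± 0.13, and Fmod, the matrix proteoglycan fibromodulin, by 0.58 ± 0.15.

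Astrocyte markers had 15 of 21 positive, 6 higher (7.2% of all features were) and a median of 0.06. Without mild 15 h replicate 1, 3 were higher and the median was 0.02, and without mild 24 h replicate 2 the median was 0.15. Gja1, which encodes the gap junction protein connexin 43, was at -0.30, -0.01 and 0.13 at 15 h and at 0.23, 0.41 and 0.55 at 24 h, a difference of 0.46 ± 0.12. Its groups did not overlap. Gjb6, another gap junction gene, differed by 0.62 ± 0.21. Gfap, the filament protein of reactive astrocytes, differed by 0.02 ± 0.13.

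Microglia and macrophage markers lay lower on 2 of the chips only. Of 23, 8 were positive, none was higher and 3 were lower (1.84% of all features were), with a median of -0.12 and chip medians of -0.22, 0.26 and -0.21. The count of lower members ran from 0 to 8 when each 15 h and 24 h array was left out in turn, and was 10 after housekeeping centring. C1qb, a chain of the first complement component, was at 0.48, -0.25 and 0.51 at 15 h and at -0.98, 0.36 and -1.15 at 24 h. Replicate 2 thus ran against the other chips, and the difference was -0.83 ± 0.34. Trem2, a lipid receptor of microglia, was at 0.19, 0.02 and 0.21 at 15 h and at -0.57, 0.32 and -0.79 at 24 h, again with replicate 2 against the others.

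The medians of the remaining supporting cell lists lay slightly under 0. They were -0.01 for oligodendrocyte lineage and for endothelial markers, -0.03 for smooth muscle and pericyte markers and -0.04 for ependymal and cilia markers. Of 25 ependymal and cilia markers, 4 were lower (1.84% of all features were), none was higher, and in 5 the 24 h arrays lay wholly below the 15 h arrays (4.11% of all features). Ttr, the thyroid hormone carrier made by choroid plexus, was at -0.51, 0.48 and -0.12 at 15 h and at -1.20, -0.33 and -1.35 at 24 h. It lay lower on each chip, with a difference of -0.91 ± 0.27, though the groups overlapped. What part these cell types had in the differences above was not tested.

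Neuronal function genes had small median differences as groups, but the chips ran in unlike directions. In each list below, the chip medians were under 0 for replicates 1 and 2 and over 0 for replicate 3. They were -0.02, -0.18 and 0.23 for neuronal cytoskeleton genes, and -0.13, -0.15 and 0.16 for synaptic vesicle genes. The medians of the fitted differences were -0.01 for neuronal cytoskeleton genes, -0.03 for synaptic vesicle genes and -0.02 for glutamate and GABA receptor genes. They were 0.00 for sodium and potassium channel genes and 0.01 for calcium handling genes. Scn4b, a beta subunit of sodium channels, was at -0.13, -0.29 and -0.12 at 15 h and at 0.25, 0.47 and 0.24 at 24 h, a difference of 0.50 ± 0.09 (limma adjusted p = 0.0921). Syt4, a synaptotagmin of secretory vesicles, differed by -0.43 ± 0.16, and Gria3, an AMPA receptor subunit, by -0.24 ± 0.09. On the other side, Snap25 of the synaptic list differed by 0.24 ± 0.13 and Klc1 of the cytoskeleton list by 0.19 ± 0.09. Of 35 synaptic vesicle genes none was higher and 2 were lower (7.2% and 1.84% of all features were). Of 31 receptor genes none was higher and 1 was lower.

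Of 35 genes linked to axon injury and regeneration, 1 was higher and 5 were lower (7.2% and 1.84% of all features were), and their median was -0.04. The count of lower members ran from 1 to 7 when each 15 h and 24 h array was left out in turn. Klf6, an injury-induced transcription factor of this list, differed by -0.26 ± 0.10 and Arg1, which makes ornithine for polyamines, by -0.24 ± 0.09. Neurotrophic and growth factor genes had a median of 0.00, with 5 of 48 higher and 6 lower, beside 7.2% and 1.84% of all features. Igfbp3, which binds insulin-like growth factors, was at -0.16, -0.26 and -0.28 at 15 h and at 0.26, 0.42 and 0.53 at 24 h, a difference of 0.64 ± 0.11 (limma adjusted p = 0.0827). Bmp7, a bone morphogenetic protein, differed by 0.60 ± 0.14.

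The largest differences in either direction were not those with the smallest p. Chosen after their values were seen, the 5 most negative belonged to Ccl20, Lcn2, Tf, Ccl2 and Chi3l1, genes of chemokines, iron binding and inflammation. Ccl20, a chemokine for dendritic cells and lymphocytes, was at 4.14, 0.03 and 0.44 at 15 h and at 0.00, 0.33 and -0.05 at 24 h. Lcn2, the iron-siderophore binding protein lipocalin 2, was at 4.06, 0.15 and 0.17 at 15 h and at 0.11, 0.03 and -0.07 at 24 h. Mild 15 h replicate 1 alone held the high values. Their differences were -1.44 ± 0.86 and -1.44 ± 0.82, with limma adjusted p of 0.665 and 0.653.

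The same genes were also high at the earlier labelled times. All 8 h arrays were high, with Ccl20 at 3.77, 3.38 and 3.67 and Lcn2 at 3.22, 2.29 and 2.95. At 0 h, replicates 2 and 3 were high (Ccl20 at 3.74 and 3.17) and replicate 1 was not (0.87). Within the chip of replicate 1, then, the array labelled 15 h and not the array labelled 0 h held the level of the 8 h arrays for these genes. Other genes followed the labels on both arrays. Egr1, an immediate early transcription factor, was at -1.44 on mild 0 h replicate 1 (-1.16 and -1.56 on the other 0 h arrays) and at 0.10 on mild 15 h replicate 1 (-0.14 and 0.16 on the other 15 h arrays). Cartpt was at -0.63 and 0.88 on these 2 arrays. Whether the 2 arrays carry each other's label cannot be settled from the labels. A fit without both arrays of replicate 1, mild 0 h and mild 15 h, chosen after the data were seen, called no feature, with 1395 at an unadjusted p under 0.05.

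**Figure D5:**
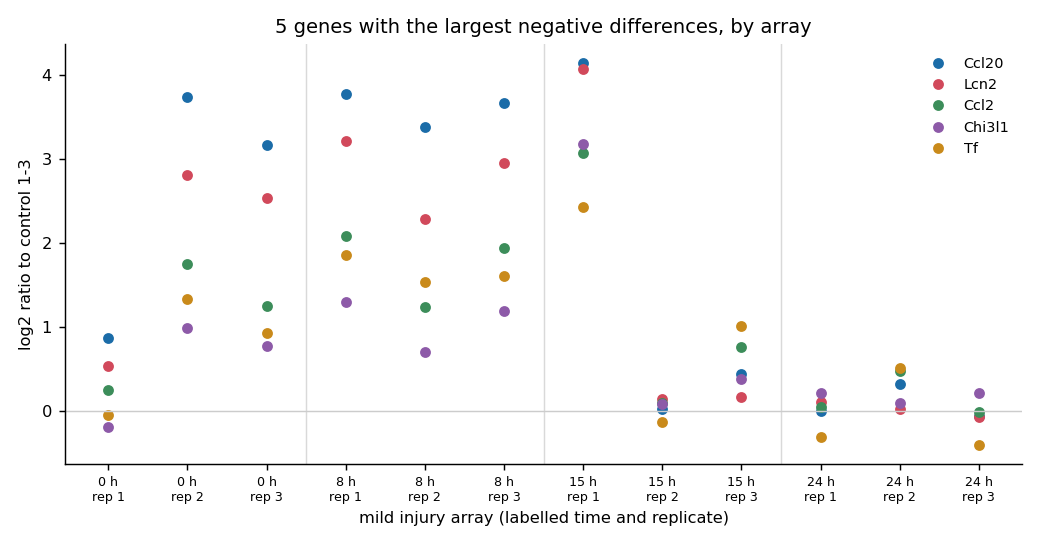
Log2 ratio to control 1 to 3 (vertical axis) of Ccl20, Lcn2, Ccl2, Chi3l1 and Tf on each of the 12 mild arrays (horizontal axis). Ccl20 reaches 4.14 on mild 15 h replicate 1 and at most 0.44 on the other 15 h and the 24 h arrays, while mild 0 h replicate 1 (0.87) lies below its group.

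The most positive differences, chosen the same way, were those of Tnnt2, Slc22a6, Txnip, Ppp1r3b and Crabp2. Tnnt2, cardiac troponin T, was at -0.90, -0.26 and -0.18 at 15 h and at 0.33, 0.65 and 0.53 at 24 h, a difference of 0.95 ± 0.18 (limma adjusted p = 0.0921). Slc22a6, an organic anion transporter, was at -0.96, -0.37 and -0.34 at 15 h and at 0.12, 0.43 and 0.51 at 24 h, a difference of 0.91 ± 0.17. Neither gene's groups overlapped. Txnip, a thioredoxin inhibitor induced by glucose, rested on mild 15 h replicate 1 at -2.10, with -0.12 and -0.15 on the other 15 h arrays.

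Whether the later step differed from the step before it, from 8 h to 15 h as labelled, was tested in the same fit. Under the other order of the arrays these steps would run from 24 h to 48 h and from 15 h to 24 h. The 2 steps share the 15 h arrays, so a high or low 15 h group gives steps of opposite sign. The contrast of the steps passed for 4 of 21862 features (0.0183%) by limma, and 2422 (11.1%) had an unadjusted p under 0.05. Cartpt, Svil and Bub1b were among them, and of all 4 only Cartpt and Svil also passed with the replicate block.

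Cartpt had the largest contrast. Its group means were -0.32 ± 0.24 at 8 h, 0.90 ± 0.05 at 15 h and 0.08 ± 0.08 at 24 h (SD, n = 3). The difference between the steps was -2.03 ± 0.21 (SE; limma adjusted p = 0.00495, and 0.0393 with the replicate block). Svil had means of 0.57 ± 0.16, -0.20 ± 0.11 and 0.47 ± 0.17, and a difference between steps of 1.43 ± 0.18 (adjusted p = 0.0141, and 0.0393 with the block). In both genes the 15 h group was the extreme, and the 24 h mean lay between it and the 8 h mean.

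Bub1b had means of 0.21 ± 0.13, -0.28 ± 0.07 and 0.23 ± 0.10, and a difference between steps of 1.01 ± 0.14. It passed with a limma adjusted p of 0.0468 and had 0.105 with the block. Egr1 was the gene nearest to passing in the negative direction after Cartpt, and its pattern differed from these. Its means were -1.29 at 8 h, 0.04 at 15 h and 0.05 at 24 h, so its difference between 15 h and 24 h was 0.01 ± 0.12. Over lists, the medians of the 8 h to 15 h step and of the later step were -0.30 and 0.29 for cell division genes, -0.23 and 0.20 for splicing genes, and 0.37 and -0.02 for immediate early genes.

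The severe arrays gave the same step after another injury. Their divisor, the arrays labelled mild 48 h, cancels within the step as well. If the arrays follow the other order, the mild step would cover 24 h to 48 h and the 2 steps would not be matched in time. By limma on 24 arrays, 0 of 21862 features had a severe step unlike the mild one (0.0%), with 973 (4.45%) at an unadjusted p under 0.05 and a smallest adjusted p of 0.0618. That was Scn4b, which differed by 0.50 in the mild step and by -0.42 in the severe step, a contrast of -0.92 ± 0.14, and it passed when the chip was added as a block. Unlike the mild numbers, severe replicate numbers do not mark a chip, and the severe 15 h and 24 h arrays share a chip for replicates 2 and 3 but not for replicate 1.

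For Defb1 the severe step was 0.05, with a contrast to the mild step of -0.69 ± 0.14 (limma adjusted p = 0.518). For Sphk1 it was -0.20, with a contrast of -0.76 ± 0.22 (adjusted p = 0.956). Cartpt had a severe step of 0.44 and a contrast of 1.25 ± 0.32 (adjusted p = 0.907). None of these 3 contrasts passed, which does not show that the steps were alike. The cell division list had a median of 0.00 in the severe step beside 0.29 in the mild one, and fibroblast and meningeal markers had -0.53 beside 0.20. The other marker lists varied. Neuron markers had 0.57 beside 0.02, oligodendrocyte lineage markers -0.33 beside -0.01, and ependymal and cilia markers -0.32 beside -0.04. Microglia and macrophage markers had 0.20 beside -0.12, and astrocyte markers -0.08 beside 0.06. Endothelial markers had 0.04 beside -0.01, and smooth muscle and pericyte markers -0.03 in both. Severe replicates could lie far apart, with SDs of 1.71 at 15 h and 1.58 at 24 h for Snap25, but 0.24 and 0.05 for Olig1. The spread of the severe medians between arrays was not tested.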

How the data were processed

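The authors deposited linear ratios, 1 per probe and array. Per the values of the 2 deposited tables set against each other, the signal of an array was scaled to its median and then set, probe by probe, over the mean of control 1 to 3 (mild 0 to 24 h) or of the arrays labelled mild 48 h (severe arrays). Background correction and software were not given in the sources used here. The table of signals holds 34 columns whose names match no sample; they entered no comparison.

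Log2 ratios were used as deposited. Of 22226 probes, 13192 were named from the platform annotation, 363 by RefSeq accession and 8558 by the deposited description. Probes of a gene were averaged, which affected 356 features. Differences were fitted by lmFit and eBayes of limma 3.58.1 under R 4.3.3 (two-sided, 4 mild groups of 3 arrays sharing 1 spread, 8 residual degrees of freedom), with Benjamini-Hochberg adjustment over all 21862 features and a threshold of adjusted p under 0.05. No filter on low values was applied, since ratios carry no level and the signal columns were used in no comparison. The severe contrast was fitted on 24 arrays. The fit was tested on simulated data. Figures used matplotlib 3.10.9 in Python 3.11.15. The number of arrays limits the precision.

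Named genes were the 10 higher and 10 lower genes with a symbol that is no predicted identifier and the same sign on all 3 chips, first those that passed by size and then those of smallest p, with 3 genes of smallest p from each of 35 lists and the 5 of smallest p in each direction of the 2 contrasts. Genes named outside this rule were chosen after their values were seen. The members, the lists and these rules were chosen with earlier results of these data known.

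Per the labels' array barcodes, replicate numbers of the mild 0 to 24 h arrays mark chips, so the numbers pair these arrays and the block is given beside results. Severe numbers do not mark chips, and there the block is the chip. Deviations of the 15 h and 24 h arrays from their group means correlated by 0.16, 0.02 and -0.10 for numbers 1, 2 and 3. Alternatives were the block, other sets of arrays, centring, quantile normalization, single probes, annotated features, robust eBayes and leaving out each mild 15 h and 24 h array. No other array was left out singly. Some results that the named-gene rule would give are not reported here.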

Additional observations from a re-analysis of the deposited data

Results flagged for a closer look

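Each of Cartpt, Svil and Bub1b had a step from 15 h to 24 h unlike its step from 8 h to 15 h by the limma contrast of both. The difference between the steps was -2.03 for Cartpt, 1.43 for Svil and 1.01 for Bub1b (log2). Bub1b had a limma adjusted p of 0.0468, and of 0.105 with the replicate block. When each 15 h and 24 h array was left out in turn, Bub1b passed only without mild 24 h replicate 2. The 8 h arrays, also part of this contrast, were not left out. Without mild 15 h replicate 2 none of these genes passed. In each gene the 15 h arrays, shared by the steps, were the extreme group of the 3 times. No group had enough arrays for a test of single outlying samples.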

How the results depend on the processing

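The 2 features called between 15 h and 24 h became 0 with the replicate block, 0 when the 18 arrays of the same divisor or all 34 arrays were fitted, 1 with only the 6 arrays fitted (Cartpt) and 65 (56 higher, 9 lower) after quantile normalization. Leaving out each 15 h and 24 h array gave 0 to 1. Leaving out mild 0 h and mild 15 h replicate 1 together, added after seeing the data, gave 0. Array median centring gave 3, adding Cartpt, and housekeeping centring, which shifted the median of all features by -0.12, gave 2 others, Cartpt and Slc22a6. Annotated features only, single probes and robust eBayes gave 2 each. Defb1 kept a positive difference of 0.62 to 0.80 and an adjusted p under 0.05 in 8 of 17 alternatives (limma adjusted p 0.00653 to 0.812), and Sphk1 one of 0.44 to 0.66 in 5 of 17 (0.00283 to 0.999). The 4 features called between the steps became 2 with the replicate block, 13 after array median centring and 254 (198 higher, 56 lower) after quantile normalization. They became 0 to 18 when each 15 h and 24 h array was left out (0 without mild 15 h replicate 2, 18 without mild 15 h replicate 3). The severe by mild contrast called 0 in the alternatives run, except 1 (Scn4b) with the replicate block. Of 385 list medians recomputed, 16 moved by more than the spread between chips, 15 of them under housekeeping centring. That spread was the SD of a list's medians on the 3 chips, a wide bar where the chips differed. The oxidative phosphorylation median of 0.16 became 0.28 without mild 15 h replicate 2 and did not count as moved. Leaving out 1 array shifts a group mean by only part of that spread, so the count is no measure of stability. The cause of these changes was not tested. Signal over background was not assessed here.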

Other observations

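Circadian clock genes had a median difference of 0.00 over 20 genes, of which 2 lay higher and 1 lay lower by an unadjusted p under 0.05 in limma, beside 7.2% and 1.84% of all features, and none passed after adjustment. Cry1, a repressor of the clock, was at -0.16, -0.07 and -0.13 on the 15 h arrays and at 0.18, 0.24 and 0.27 on the 24 h arrays, a difference of 0.35 ± 0.08. Per2, another repressor, differed by 0.29 ± 0.11 and Nr1d1, which represses Bmal1, by -0.23 ± 0.08. The groups of Cry1 did not overlap.

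Among glycolysis and hypoxia genes, whose median was 0.01 over 36, the members with the smallest p lay on opposite sides. P4ha2, a collagen prolyl hydroxylase, was at -0.28, -0.64 and -0.41 at 15 h and at 0.02, 0.11 and 0.04 at 24 h, a difference of 0.50 ± 0.10. Slc16a3, a lactate exporter, was at -0.03, -0.10 and -0.38 at 15 h and at -0.81, -0.43 and -0.69 at 24 h, a difference of -0.47 ± 0.15. Of 41 cytokine and chemokine genes, 4 were higher (7.2% of all features were) and none lower, with a median of -0.06. Quantile normalization gave 6 lower and housekeeping centring 7 lower. Il15, an interleukin of lymphocyte and microglia signalling, was at -0.13, -0.23 and -0.09 at 15 h and at 0.16, 0.19 and 0.31 at 24 h, a difference of 0.37 ± 0.07 (limma adjusted p = 0.0956). Cholesterol synthesis genes had a median of -0.05 over 28, with chip medians of -0.42, 0.02 and 0.35, so the chips ran in unlike directions.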
